A study of Homo sapiens with 4 samples.

Results

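U87, an established human glioblastoma cell line, was grown in hypoxia as 2 kinds of control culture, unmodified wild-type (WT) cells and cells carrying a scrambled short hairpin RNA (shScr), and the expression of their protein-coding genes is compared here. The genes were all symbols spelled alike in the WT gene table and in the shRNA gene table and marked protein-coding in the latter, which gave 18105 genes of the 18964 rows of the WT table and of the 58735 rows of the shRNA table. Expression was measured by RNA-seq in 4 libraries with 1 library a group, which were WT cells kept in normoxia, WT cells kept in hypoxia, shScr cells in hypoxia, and cells with a hairpin against ALKBH5 (shALKBH5) in hypoxia. Per the labels' protocols, the cultures shared DMEM with 10% fetal bovine serum, oxygen was held at 1% O2 for hypoxia, and Trizol RNA went into NEBNext Ultra library preparation. The labels name the control hairpin only as shScr and give no vector, clone number or time in hypoxia.

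Cells sense low oxygen through prolyl hydroxylases that mark the HIF-alpha proteins for destruction when oxygen is present. In hypoxia HIF is stable, pairs with ARNT and binds a short DNA core in its target genes, which include those for glycolysis, carbonic anhydrases, angiogenic factors and collagen-modifying enzymes. A scrambled hairpin matches no intended transcript and serves as the reference for cells that carry a targeting hairpin, so in a study of ALKBH5, which removes the m6A mark from RNA, shScr cells in hypoxia and WT cells in hypoxia are alternative baselines.

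Levels are FPKM, the fragments counted for a gene divided by its length and by a measure of library size. The tables were normalised separately by the authors, so a level in one table is not directly comparable with a level in the other. Each library was therefore ranked within itself from 0 to 100, and the difference between the controls was taken as log2(FPKM + 1) in shScr hypoxia minus WT hypoxia, centred on the median gene, which lay at -0.73 before centring. This scale shrinks the difference of low genes before centring, and the full centre is then removed from them, which places them higher. GAP43, at 1.76 FPKM in WT hypoxia and 1.77 in shScr hypoxia, thus read 0.73. Of the 18105 genes, 10495 averaged 1 FPKM or more over the controls and were tested, and 7610 fell below that filter. With 1 library a group there is no spread between replicates and no p-value. Genes are counted by size, at least 2-fold apart after centring or at least 20 percentile points apart in rank. In the lowest decile of tested genes by mean FPKM, 14.6% counted as 2-fold higher in shScr hypoxia and 3.62% as lower. In shScr hypoxia 17859370 reads were recovered, whereas the WT values carry no depth.

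The cell line label was compared with marker genes. All 18 glioblastoma line markers passed the filter, and their median rank was 97.8 in WT hypoxia and 98.0 in shScr hypoxia. By size, 8 of the 18 were at least 2-fold higher in shScr hypoxia and 3 lower, beside 17.6% and 15.8% of all tested genes. CHI3L1 ranked 12.5 in WT hypoxia and 81.3 in shScr hypoxia, and NES 19.1 and 68.4. The locus of CDKN2A and MTAP is known to be deleted in U87, and CDKN2A was listed at 0 in all 4 libraries while MTAP reached at most 0.10 FPKM. Of 15 glial lineage and neural stem cell markers 12 lay under the filter. GFAP stood at 0.04 FPKM in WT hypoxia and 0.18 in shScr hypoxia, and SOX2 at 0.04 and 0. The 15 summed to 15.0 FPKM in WT hypoxia and 43.5 in shScr hypoxia, most of the latter SOX9 at 37.3. In these libraries 5 and 7 of the 15 were at 0. Of markers of other cells, PTPRC of leukocytes stood at 0.06 and 0 FPKM, AIF1 of microglia at 0 and 0, CDH5 of endothelium at 0 and 0.01, and EPCAM of epithelium at 0.15 and 0.03. The 11 myeloid markers summed to 350 FPKM in WT hypoxia and 16.7 in shScr hypoxia, with 2 and 5 at 0. The tested members were CD68 at 254.5 and 0.15 FPKM, which shares 85.8% of its exon bases, TREM1 at 91.7 and 11.7 and CSF1R at 2.89 and 4.44. The 10 neuron markers summed to 110 and 8.51 FPKM, with 2 and 3 at 0, and most of the WT value was TUBB3 at 98.11 against 1.1998. The 10 endothelial markers summed to 7.63 and 5.85 FPKM, with 1 and 3 at 0 and TEK highest in shScr hypoxia at 3.67. The 10 epithelial markers summed to 3.57 and 9.07 FPKM, with 0 and 2 at 0 and CLDN7 highest at 1.22 and 6.53. These sums are not directly comparable between the tables. As shares of the summed FPKM of the 18105 genes, the glial lineage and neural stem cell markers held 0.00287% and 0.0136%. In the same order of libraries the myeloid markers held 0.0671% and 0.00524%, and the neuron markers 0.021% and 0.00267%. The endothelial markers held 0.00146% and 0.00183%, and the epithelial markers 0.000685% and 0.00284%. The part of these markers in the results below was not tested.

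The median rank of hypoxia marker genes was nearly the same in both controls. It lay near the top of both, where large differences in level move rank little. HILPDA, for one, differed by 2.24 in centred level and by 0.93 points in rank, and differences in level are given below. Among 39 tested HIF-responsive genes outside glycolysis, the median percentile rank was 45.6 in WT normoxia, 95.2 in WT hypoxia, 96.5 in shScr hypoxia and 97.4 in shALKBH5 hypoxia. In shScr hypoxia all 39 ranked above their place in WT normoxia, and 36 of 39 lay nearer to WT hypoxia than to WT normoxia, against 62.8% of all tested genes. Of the 39, 25 ranked above their place in WT hypoxia, near the 50.6% of all tested genes that did. The WT libraries themselves had all 39 genes at least 2-fold higher in hypoxia after centring, where 12.2% of all tested genes were. The list was drawn up with earlier results of these data known, so these counts describe it and are no independent test.

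**Figure D1:**
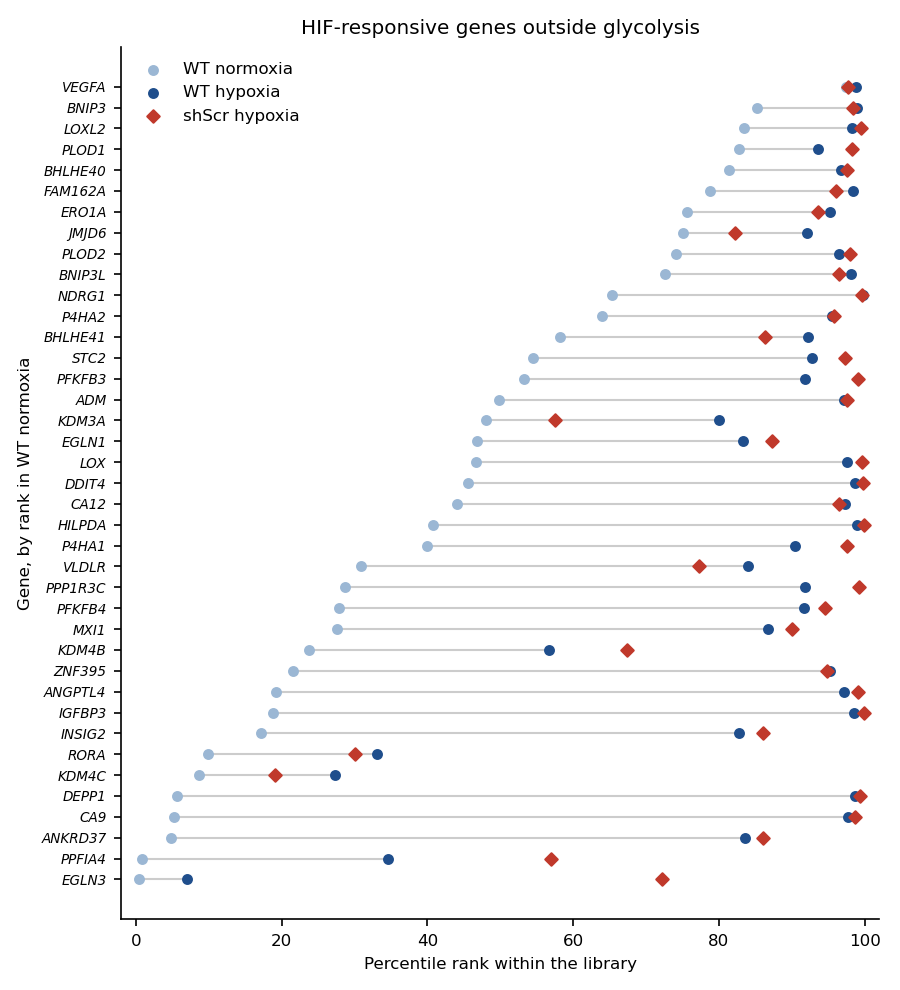
Percentile rank within the library (x axis, 0 to 100) of the 39 tested HIF-responsive genes outside glycolysis (y axis, ordered by rank in WT normoxia), with light circles for WT normoxia, dark circles for WT hypoxia and diamonds for shScr hypoxia, 1 library each. The diamonds lie beside the dark circles for most genes, with EGLN3, PPFIA4 and KDM3A as the visible departures.

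The promoters of 3 of these genes are shown because the core that HIF binds, ACGTG, is present in each and their ranks rose from WT normoxia to both hypoxic controls, as seen before they were picked. CA9 is a carbonic anhydrase of the cell surface, ANKRD37 an ankyrin-repeat protein, and PPP1R3C a subunit that brings protein phosphatase to glycogen. The windows run from 250 bases before to 50 bases after the RefSeq start, are written 5' to 3' on the strand of the gene, and have ACGTG or its reverse complement CACGT in capitals. They lie on GRCh38.p14 at chr9:35673678-35673977 on the plus strand for CA9, at chr4:185396591-185396890 on the plus strand for ANKRD37, and at chr10:91633022-91633321 on the minus strand for PPP1R3C.
CA9: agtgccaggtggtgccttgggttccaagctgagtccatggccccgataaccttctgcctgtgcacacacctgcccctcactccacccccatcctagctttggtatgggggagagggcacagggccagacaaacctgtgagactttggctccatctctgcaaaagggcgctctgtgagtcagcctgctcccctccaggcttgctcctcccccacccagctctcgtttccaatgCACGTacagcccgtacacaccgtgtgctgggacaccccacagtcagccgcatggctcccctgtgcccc
ANKRD37: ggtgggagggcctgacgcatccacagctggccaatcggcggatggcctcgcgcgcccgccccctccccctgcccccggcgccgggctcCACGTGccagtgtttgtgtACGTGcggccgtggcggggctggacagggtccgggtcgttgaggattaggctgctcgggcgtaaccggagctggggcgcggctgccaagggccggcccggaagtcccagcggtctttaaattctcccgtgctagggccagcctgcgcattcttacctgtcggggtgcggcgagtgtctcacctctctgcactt
PPP1R3C: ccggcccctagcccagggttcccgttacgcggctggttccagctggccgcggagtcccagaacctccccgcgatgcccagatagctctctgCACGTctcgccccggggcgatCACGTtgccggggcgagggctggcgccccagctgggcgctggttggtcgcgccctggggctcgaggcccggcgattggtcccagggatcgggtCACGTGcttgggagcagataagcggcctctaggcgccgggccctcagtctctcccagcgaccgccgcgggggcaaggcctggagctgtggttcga
Counted on both strands, so that CACGTG counts once on each, the copies were 1 in CA9, 3 in ANKRD37 and 4 in PPP1R3C. A single RefSeq window was matched for 27 of the 39 genes, and 16 of these 27 held ACGTG, or 59.3%, against 29.3% of the 5927 windows matched to tested genes and 21.3% of all 22114 windows. The related core GCGTG was in 16 of the 27 windows and in 53.5% of the windows of tested genes. A match is only a run of letters in the window.

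CA9 (ENSG00000107159, GRCh38 chromosome 9, 35673856 to 35681159, plus strand) stood at 1.27 FPKM in WT normoxia, 322 in WT hypoxia, 348 in shScr hypoxia and 278 in shALKBH5 hypoxia. Its rank was 5.22 in normoxia and 97.7 and 98.7 in the WT and shScr hypoxic controls, so the 3 hypoxic libraries stood together and far from normoxia. ANKRD37 rose in rank from 4.80 in WT normoxia to 83.6 in WT hypoxia and 86.1 in shScr hypoxia. DEPP1, an autophagy-linked gene, read 1.34, 602, 589 and 402 FPKM in WT normoxia, WT hypoxia, shScr hypoxia and shALKBH5 hypoxia, the order kept in the values below. NDRG1, a stress-response gene, read 22.4, 1769, 768 and 963 FPKM and held rank 99.7 in WT hypoxia and 99.6 in shScr hypoxia.

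Within the same list some genes stood higher in shScr hypoxia. By size, 13 of the 39 were at least 2-fold higher and 3 at least 2-fold lower, against a background of 17.6% higher (1842 genes), 15.8% lower (1656 genes) and 33.3% in either direction over all tested genes, and the list median was 0.53. EGLN3, an oxygen-sensing prolyl hydroxylase that HIF itself induces, read 0.05, 1.83, 14.8 and 29.1 FPKM, a centred difference of 3.20. Its rank was 7.04 in WT hypoxia and 72.2 in shScr hypoxia, so it was low in one control and well expressed in the other. PPP1R3C read 6.39, 91.4, 498 and 144 FPKM, a difference of 3.16. PFKFB3, which makes the activator of phosphofructokinase, read 14.9, 91.6, 456 and 247 FPKM, a difference of 3.03. HILPDA, a lipid droplet protein, read 9.93, 771, 2202 and 1106 FPKM, a difference of 2.24. These 4 genes were highest in an shRNA library and lowest in WT normoxia.

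The 3 genes lower in shScr hypoxia were KDM3A at -1.38, FAM162A at -1.23 and JMJD6 at -1.06. KDM3A, a histone demethylase, read 12.6, 36.5, 7.68 and 10.9 FPKM, with ranks of 48.1, 79.98 and 57.5 in WT normoxia, WT hypoxia and shScr hypoxia. Centred among genes of like length, KDM3A stood at -0.94. It lay nearer to WT normoxia than to WT hypoxia in rank, as did JMJD6 and VEGFA. VEGFA, the angiogenic growth factor, read 257, 621, 206 and 198 FPKM, a difference of -0.87, and it ranked 97.4, 98.8 and 97.7, so its places were close in every library. With every gene taken into the centre regardless of level, the list median was -0.001 instead of 0.53.

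Genes of glucose entry and glycolysis stood, at their median, where the median gene stood. The 20 genes had a median difference of -0.01, with 3 at least 2-fold higher and 2 at least 2-fold lower. Of the 20, 16 ranked nearer to WT hypoxia than to WT normoxia. The shares over all tested genes were 17.6% higher, 15.8% lower and 62.8% nearer to WT hypoxia. SLC2A1, the main glucose transporter, read 12.2, 338, 530 and 600 FPKM, a difference of 1.37. HK2 and PFKP, which phosphorylate glucose and fructose-6-phosphate, differed by 1.38 and 1.61. With every gene taken into the centre, SLC2A1 and HK2 fell under the 2-fold size, at 0.82 and 0.83. PDK1, which shuts pyruvate out of the mitochondrion, read 2.64, 55.7, 6.19 and 7.39 FPKM, a difference of -2.25, and was high in WT hypoxia alone. ALDOA, the main aldolase, read 1246, 3473, 44.7 and 26.1 FPKM, a difference of -5.52, and shares 53.5% of its exon bases with another annotated gene, a property taken up below.

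The controls differed widely over all tested genes, these lists included. Across the 10495 tested genes, Spearman's rho between the ranks in WT hypoxia and shScr hypoxia was 0.758, given as a description over genes of 1 library each. It was 0.631 between WT normoxia and shScr hypoxia, 0.875 between the WT libraries and 0.962 between the shRNA libraries, so libraries of one table ranked genes more alike than libraries of one oxygen condition. The median gene moved 10.5 percentile points in rank and 0.68 log2 units in centred level between the controls. In shScr hypoxia 1334 genes, or 12.7%, ranked at least 20 points higher and 1248, or 11.9%, at least 20 points lower. Of the 100 highest genes of each control 53 were shared, and of the 500 highest 336 were shared. The table, the culture, the hairpin and the library cannot be told apart in these differences, nor can fewer cells of a type and less RNA per cell.

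**Figure D2:**
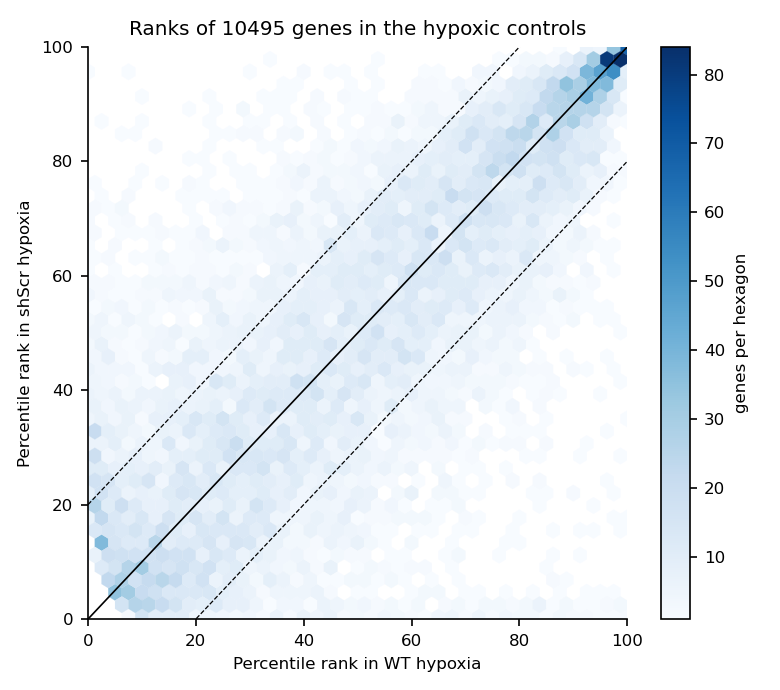
Percentile rank in WT hypoxia (x axis) against percentile rank in shScr hypoxia (y axis) for the 10495 tested genes, coloured by the number of genes per hexagon, with a solid line of equal rank and dashed lines 20 points to either side. Genes crowd the line at the top right, and 1334 lie above the upper and 1248 below the lower dashed line.

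The structure of a gene in the annotation moved with the difference. The gene lengths in the shRNA table equalled the union of all exons in GENCODE release 29 for 18105 of 18105 genes. The 5211 tested genes whose exons overlap no other gene had a median difference of 0.18, and the 287 genes with over 50% of their exon bases shared had a median of -1.51. In the latter class 66.2% were at least 2-fold lower in shScr hypoxia and 17.1% had 0 reads there. Among genes with no shared exon, the median fell from 0.53 where the union was at most 1.1 times the longest transcript to -0.53 where it was over 2 times. It was 0.23 for genes with no named processed pseudogene and -0.91 for the 15 genes with over 20. In the class with over 50% shared, the median within-table difference was 0.14 between the WT libraries and 0.02 between the shRNA libraries. The part of gene structure in any single difference was not tested, and values for genes with no shared exon, centred anew, are therefore given beside the lists below. Among those 5211 genes 883, or 16.9%, were at least 2-fold higher and 731, or 14%, at least 2-fold lower, and rho between the controls was 0.803.

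**Figure D3:**
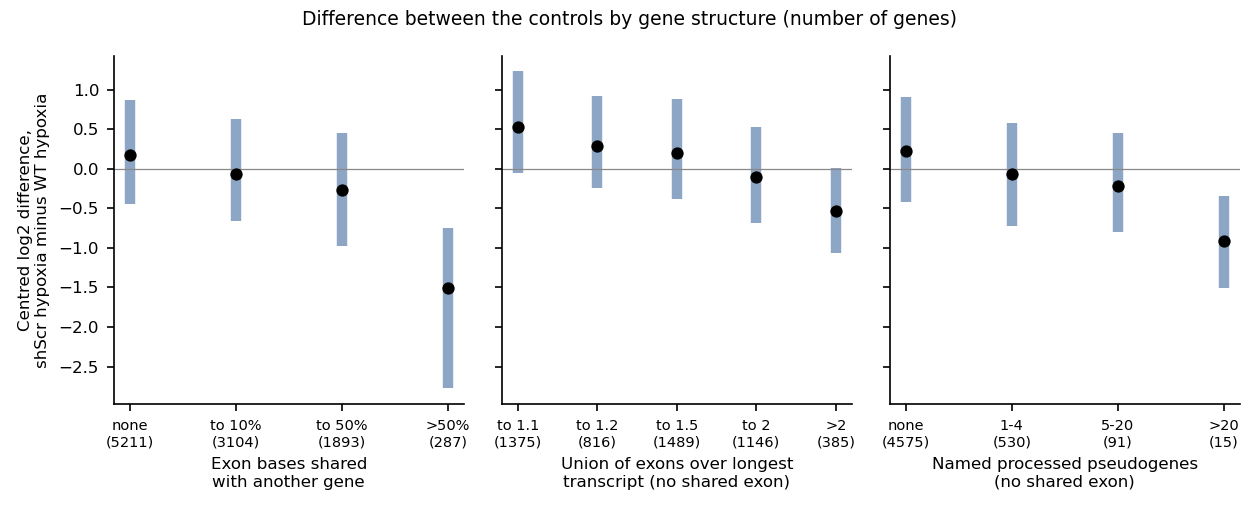
Centred log2 difference between the controls (y axis) in classes of genes by the share of exon bases in another gene, by the union of exons over the longest transcript, and by the number of named processed pseudogenes, with dots for medians, bars for the middle 50% of genes and the number of genes in brackets. Medians fall from left to right in each panel, to -1.51, -0.53 and -0.91.

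The lower end of the comparison was made of genes that share exons. All of the 12 lowest genes shared exon bases with another gene, from 4.37% to 99.9% of them with a median of 44.0%. EEF1G (ENSG00000254772, GRCh38 chromosome 11, 62559601 to 62574086, minus strand), a subunit of translation elongation factor 1, stood at 1212 and 1478 FPKM in the WT libraries and had 0 reads in both shRNA libraries, where 3 reads would be 0.07 FPKM in shScr hypoxia. The gene AP002990.1 on the same strand covers 99.9% of its exons. RPS10 and RPL36A, ribosomal proteins whose genes lie inside readthrough genes, fell from rank 98.9 and 98.8 in WT hypoxia to 1.74 and 1.60 in shScr hypoxia. MIF, a cytokine, had 615 FPKM in WT hypoxia and 1.40 in shScr hypoxia, and CD68, a lysosomal protein, had 255 and 0.15. All 12 were also at least 2-fold lower in shALKBH5 hypoxia than in WT normoxia, a pair of libraries that shares none with the controls and where 20.5% of tested genes were lower.

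Genes with no shared exon at the low end were picked after their values were seen. IL1B (ENSG00000125538, GRCh38 chromosome 2, 112829751 to 112836903, minus strand), the inflammatory cytokine interleukin-1 beta, read 2435, 1048, 21.6 and 42.5 FPKM, a difference of -4.81. The 995 reads in shScr hypoxia give an exact Poisson interval of 20.3 to 23.0 FPKM at 95%, covering counting error only. Both WT libraries thus stood far above both shRNA libraries. The related IL1A read 1.76, 7.25, 4.66 and 8.79 FPKM, a difference of 0.18. U2AF1, EIF3C, CBWD1 and CBWD5, at -4.56, -4.26, -3.41 and -4.12, have near-identical copies elsewhere in the genome, so their counts are uncertain. MTRNR2L10 and MTRNR2L6, which resemble the mitochondrial ribosomal RNA gene, had 67.4 and 17.5 FPKM in WT hypoxia and 0 reads in shScr hypoxia.

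The largest difference at the upper end was that of a protease inhibitor. TIMP3 (ENSG00000100234, GRCh38 chromosome 22, 32801701 to 32863043, plus strand), a matrix-bound inhibitor of metalloproteinases, read 0.06, 5.72, 419 and 749 FPKM, a difference of 6.69. PRSS35 (ENSG00000146250, GRCh38 chromosome 6, 83512538 to 83525704, plus strand), a protease-like protein, read 0.08, 0.76, 109 and 49.4 FPKM, a difference of 6.69. It moved from rank 1.11 in WT hypoxia to 95.4 in shScr hypoxia, the largest rise in rank among genes averaging 5 FPKM or more. CCL26, an eosinophil-attracting chemokine, read 1.39, 1.93, 148 and 39.0 FPKM, a difference of 6.39. In all 3 genes both shRNA libraries stood above both WT libraries, and none shares an exon.

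The laminin chains LAMA5 and LAMB3, parts of basement membrane, followed at 5.09 and 4.95. LAMA5 read 0.34, 0.88, 37.6 and 25.4 FPKM, and LAMB3 read 2.54, 2.28, 60.3 and 52.0. Each shares exon bases with another gene, 2.54% and 0.13%. PLAT, tissue plasminogen activator, read 7.79, 11.1, 179 and 137 FPKM, a difference of 4.62. S100A4, a calcium-binding protein, differed by 4.47, and IGFBP4, which binds insulin-like growth factors, by 4.43. Of the 12 highest genes 5 share exons, beside 50.3% of all tested genes. All 12 were at least 2-fold higher in shALKBH5 hypoxia than in WT normoxia (23.2% of tested genes were). P2RY11, a nucleotide receptor, was listed at 0 in both WT libraries and read 14.9 and 8.80 FPKM in the shRNA libraries, and it shares 59.2% of its exon bases. OPN1SW, a cone opsin, read 0, 0.05, 13.6 and 10.2 FPKM. RIPK4, a kinase, differed by 4.50, and NBL1, a secreted BMP antagonist, by 4.79, with 17.8% of its exon bases shared. EPHA2, an ephrin receptor, read 7.21, 1.88, 32.6 and 11.2 FPKM and AGFG2, a nucleoporin-like protein, 4.92, 3.38, 46.7 and 7.20, so shScr hypoxia was the highest library for both. EPHA2 belongs to the largest rises in rank, and AGFG2 was picked after its values were seen.

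**Figure D4:**
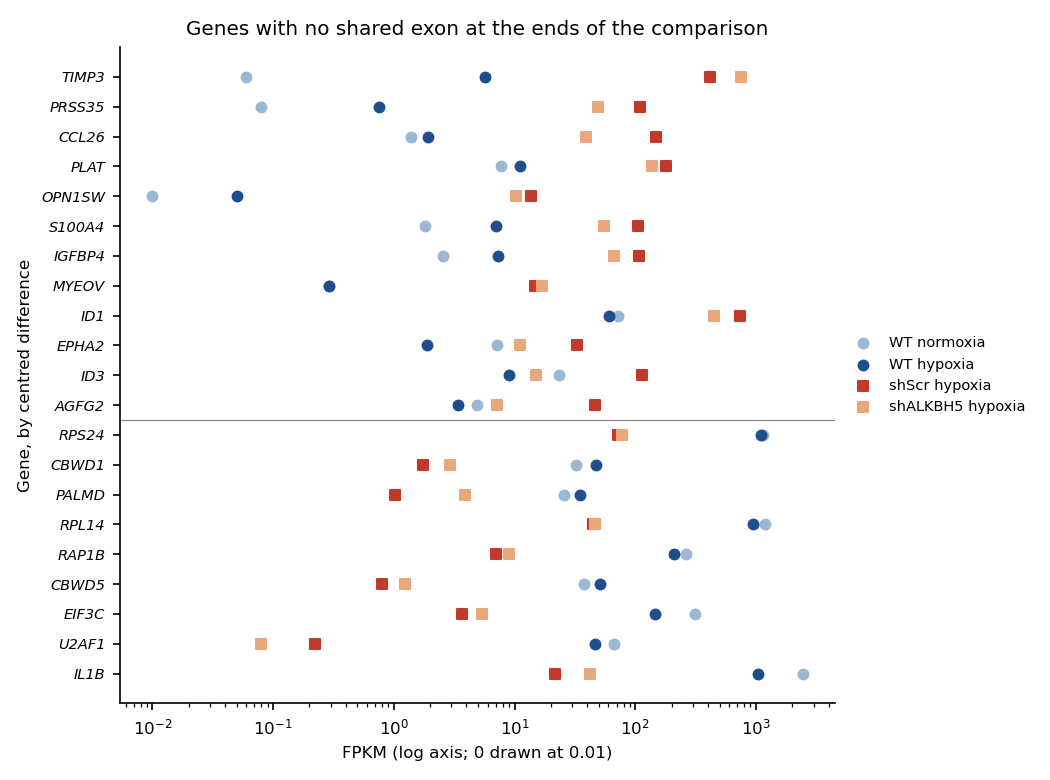
FPKM on a log axis in each of the 4 libraries (circles for WT, squares for shRNA) for the 12 highest and 9 lowest genes with no shared exon and with reads in shScr hypoxia, ordered by the centred difference. In 9 of the 12 upper genes both squares lie above both circles by a wide gap, and in the lower genes both squares lie below both circles.

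Targets of BMP signalling stood highest of the lists with 8 or more tested members. BMP ligands act through SMAD transcription factors to induce the ID genes, which block differentiation factors. Of 14 tested BMP and SMAD targets 10 were at least 2-fold higher in shScr hypoxia and 1 was lower, beside 17.6% and 15.8% of all tested genes. The list had a median of 2.15 and a median rise of 31.8 percentile points. Among the 12 with no shared exon, 8 were higher and none lower, with a median of 1.97, beside 16.9% and 14% of all such genes. The list median was 1.23 with no filter and 1.14 among genes that also have 1 main length and few pseudogenes. ID1 (ENSG00000125968, GRCh38 chromosome 20, 31605283 to 31606515, plus strand) read 72.5, 61.0, 744 and 452 FPKM, a difference of 4.31. ID2 read 7.77, 11.5, 104 and 52.5 FPKM, a difference of 3.80. ID3 read 23.4, 8.96, 113 and 15.0 FPKM, a difference of 4.24, and ATOH8 read 0.28, 0.27, 11.7 and 0.83, a difference of 4.05. ATOH8 and NOG passed the filter through the shScr level alone. For ID3 and ATOH8 shScr hypoxia stood apart from all other libraries, whereas for ID1 and ID2 both shRNA libraries were high.

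The inhibitory SMADs and BMP antagonists did not all move one way. SMAD7 and SMAD6, which damp the pathway, differed by 2.06 and 1.49, and NOG, a secreted antagonist, read 0.03, 0.16, 2.74 and 4.47 FPKM. GREM1, another antagonist, read 192, 128, 23.6 and 40.3 FPKM, a difference of -1.66, and was the 1 lower member. BMP2 differed by -0.26, and BMP4 was listed at 0.06 FPKM in WT hypoxia and had 0 reads in shScr hypoxia. Transforming growth factor ligands in the cytokine list were higher, with TGFB1 at 1.71, TGFB2 at 2.42 and TGFB3 at 2.97. TGFB2, at 0.69 FPKM in WT hypoxia and 4.45 in shScr hypoxia, passed the filter through the shScr level alone. TGFB3 read 1.69, 1.89, 12.7 and 3.38 FPKM, highest in shScr hypoxia.

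The medians of the collagen and integrin lists were past the 2-fold size and that of the wider matrix list was not. Background shares for the counts were 17.6% higher and 15.8% lower over all tested genes, and 16.9% and 14% with no shared exon. Of 16 tested collagens 9 were at least 2-fold higher and none lower, with a median of 1.15, and among 13 with no shared exon 5 were higher with a median of 0.74, under the 2-fold size. COL5A2 read 2.03, 6.47, 45.8 and 48.6 FPKM, a difference of 3.37, while COL1A1 read 35.2, 161, 127 and 182, a difference of 0.39. COL3A1, at 0.19 FPKM in WT hypoxia and 2.36 in shScr hypoxia, passed the filter through the shScr level alone. Of 10 integrins 6 were higher and none lower, with a median of 1.16, led by ITGB5 at 1.79 and ITGA7 at 1.71. Among the 4 with no shared exon 3 were higher with a median of 1.102, and with no filter the list median was 0.56. Of 25 matrix glycoproteins, proteoglycans and proteases 11 were higher and 4 lower, with a median of 0.98, and among 12 with no shared exon 5 were higher and 2 lower with a median of 0.87. With no filter that median was 0.13. The 4 lower were PLAUR at -2.91, TIMP1 at -1.74, PLAU at -1.68 and SERPINB2 at -1.66. PLAUR is the receptor and PLAU the ligand of the urokinase system, and PLAT, the other activator, was among the highest genes. PLAU read 168, 35.8, 5.93 and 4.81 FPKM and PLAUR 428, 674, 53.4 and 97.1.

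The list of fibroblast and pericyte markers also had a median past the 2-fold size. It shares members with the collagen list, COL3A1 among them, so the lists are not independent. Of 12 such markers 8 were tested, 5 were at least 2-fold higher and 1 lower, beside 17.6% and 15.8% of all tested genes. The median of 1.24 fell to 0.70 among genes with at least 1 FPKM in both controls. Among 3 with no shared exon 2 were higher with a median of 1.05. The 12 markers summed to 438 FPKM in WT hypoxia and 496 in shScr hypoxia, most of it COL1A1 and COL1A2. These sums are not directly comparable between the tables. As shares of the summed FPKM of the 18105 genes they were 0.0839% and 0.155%. THY1 was listed at 0 in WT hypoxia and at 0.01 FPKM in shScr hypoxia, and DCN stood at 0.95 and 0.34. TAGLN, a contractile protein, read 0.47, 0.90, 8.02 and 3.50 FPKM and, like COL3A1, passed the filter through the shScr level alone. ACTA2, by contrast, read 16.1, 25.7, 4.11 and 5.58. The part of these markers in the matrix result was not tested.

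Histone messages of the replication-dependent clusters were higher in shScr hypoxia. Of 22 matched genes 11 passed the filter, and none of the 11 shares an exon. Of these 9 were at least 2-fold higher and none lower, with a median of 1.65, beside 17.6% higher and 15.8% lower over all tested genes. The 11 had a median rank of 9.57 in WT hypoxia. HIST1H3B, at 0.23 FPKM in WT hypoxia and 3.60 in shScr hypoxia, passed the filter through the shScr level alone. HIST1H4H read 1.54, 2.10, 22.2 and 28.8 FPKM, a difference of 3.63, and HIST1H1C, the most abundant in shScr hypoxia, read 127, 123, 177 and 88.5, a difference of 1.25. These messages end in a stem-loop instead of a poly(A) tail, and the labels do not say whether poly(A) selection or ribosomal RNA depletion preceded either library. With no filter on level the median over all 22 was 0.90.

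Genes of cell division were lower in shScr hypoxia. Of 32 G2/M and mitotic genes 17 were at least 2-fold lower and none higher, beside 15.8% and 17.6% of all tested genes. The list had a median of -1.07 and a median fall of 15.0 points in rank. Among 19 with no shared exon 12 were lower, with a median of -1.13, beside 14% of all such genes. PTTG1, the securin that guards sister chromatids, read 360, 254, 48.7 and 41.0 FPKM, a difference of -1.63. CDK1, the mitotic kinase, read 56.1, 37.2, 7.39 and 7.35 FPKM, a difference of -1.46. BIRC5 went the other way at 0.94, with 67.8, 31.2, 36.3 and 13.1 FPKM, so division genes were not shifted by 1 common amount. PRC1 and NUSAP1, at -4.72 and -3.98, share 58.4% and 62.2% of their exon bases.

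DNA replication genes gave a like picture with less size. Of 37 G1/S and replication genes 15 were lower and 1 higher, with a median of -0.93, beside 15.8% and 17.6% of all tested genes. Among 21 with no shared exon 8 were lower and none higher with a median of -0.73, beside 14% and 16.9% of all such genes. GINS2 of the replicative helicase read 66.9, 35.3, 3.11 and 2.996 FPKM, a difference of -2.42. CCND1, cyclin D1, read 382, 269, 44.9 and 126 FPKM, a difference of -1.83. E2F1 was the higher gene at 1.02. Of the 32 G2/M genes, 28 were also at least 2-fold lower in shALKBH5 hypoxia than in WT normoxia, with a median of -1.72. Of the 37 G1/S genes 28 were lower in that pair, as were 20.5% of all tested genes.

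Splicing and cytosolic ribosomal protein lists had medians past the 2-fold size on the lower side, where 15.8% of all tested genes were lower. Of 32 SR proteins and hnRNPs, which bind pre-mRNA and guide splicing, 18 were lower and 1 higher, with a median of -1.17, and among 16 with no shared exon 12 were lower with a median of -1.51. SRSF7 read 129, 52.6, 2.61 and 5.16 FPKM, a difference of -3.17, and TRA2B read 94.8, 60.3, 3.61 and 6.38, a difference of -3.01. HNRNPH2 was the higher gene at 2.81. Of 79 cytosolic ribosomal proteins 41 were lower and 4 higher, with a median of -1.04, which was -0.76 when genes were centred among others of like union-exon length. Among 27 with no shared exon 15 were lower and 1 higher, with a median of -1.18. Their share of the summed FPKM of the 18105 genes was 15.6% in WT hypoxia and 8.77% in shScr hypoxia. Their ranks moved little, from a median of 99.2 to 98.1, because they fill the top of either library. Many of them have processed pseudogenes, with 10 named for RPS24 at -3.18, and whether reads were split was not tested. Tested genes with no shared exon and 5 to 20 named pseudogenes had a median of -0.22. Of 29 ribosome biogenesis factors 7 were lower and none higher with a median of -0.63, and among 14 with no shared exon 6 were lower with a median of -0.86. Of 34 translation initiation and elongation factors 13 were lower and 2 higher with a median of -0.52, and among 13 with no shared exon 5 were lower with a median of -0.85. Of 59 mitochondrial ribosomal proteins 13 were lower and 8 higher with a median of -0.28, and among 27 with no shared exon 7 were lower and 5 higher with a median of -0.26.

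**Figure D5:**
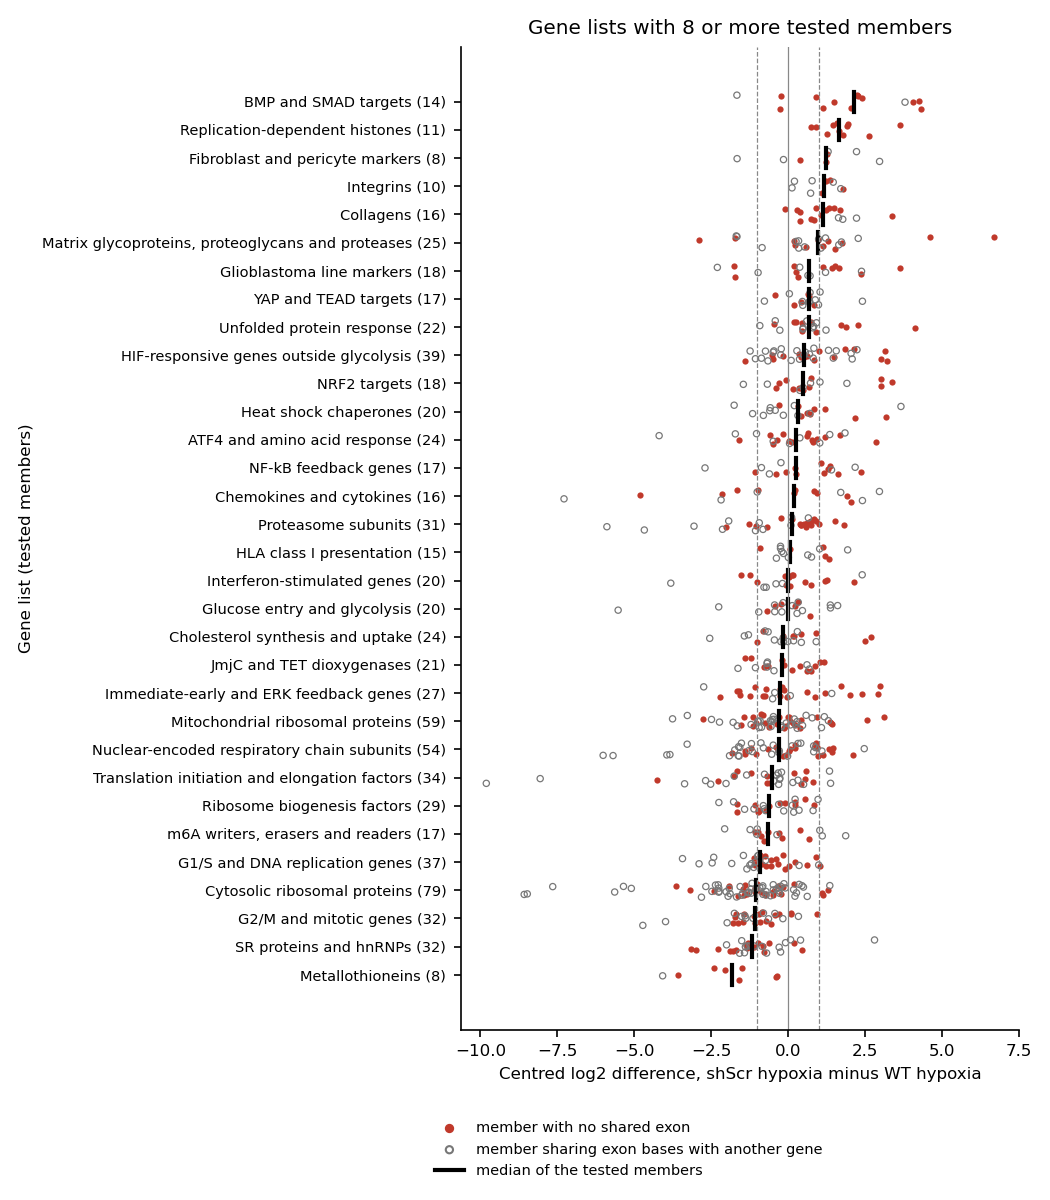
Centred log2 difference between the controls (x axis) for the tested members of lists with 8 or more (y axis, number tested in brackets), with filled dots for members with no shared exon, open circles for members that share exon bases, black bars for list medians and dashed lines at 2-fold. BMP and SMAD targets lie highest with a median of 2.15 and metallothioneins lowest with -1.83, and the points beyond -5 on the left are all open circles.

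Metallothioneins, small zinc-binding proteins, had the lowest median of the lists with 8 or more tested members. Of 8 tested 6 were at least 2-fold lower and none higher, with a median of -1.83, beside 15.8% lower and 17.6% higher over all tested genes. Among 7 with no shared exon 5 were lower with a median of -1.78, beside 14% of all such genes. MT2A read 8560 and 8765 FPKM in the WT libraries and 1271 and 1874 in the shRNA libraries, a difference of -2.06. MT1X read 299, 1295, 45.5 and 96.6 FPKM, a difference of -4.08, and MT1A had 18.75 FPKM in WT hypoxia and 0 reads in shScr hypoxia. MT3 kept its hypoxic level, with 0.37, 80.0, 37.2 and 44.8 FPKM and a difference of -0.36. These genes are close relatives, and whether reads were split among them was not tested. As a share of the summed FPKM of the 18105 genes, the 9 matched metallothioneins held 2.03% in WT hypoxia and 0.451% in shScr hypoxia. In the pair of shALKBH5 hypoxia and WT normoxia 3 of the 8 tested were lower and 3 higher, with a median of -0.23. Of all tested genes 20.5% were lower and 23.2% higher in that pair.

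Chemokines and cytokines went both ways, with 5 of 16 higher and 6 lower, and 2 of 10 higher and 4 lower among those with no shared exon. Over all tested genes 17.6% were higher and 15.8% lower, and over those with no shared exon 16.9% and 14%. CXCL8, the neutrophil-attracting chemokine, read 113, 241, 281 and 124 FPKM, a difference of 0.95, and was high in both hypoxic controls. IL6 read 26.7, 264, 78.9 and 55.7 FPKM, a difference of -1.004. CSF3, a granulocyte growth factor, read 1095, 237, 44.7 and 45.9 FPKM, a difference of -1.65, and CCL20 read 0.65, 8.81, 0.34 and 0.36, a difference of -2.15. Of 17 feedback genes of NF-kB, the factor that induces many cytokines, 8 were higher and 2 lower with a median of 0.25, led by NFKBIE at 2.37 and IER3 at 2.18, and SOD2 was lowest at -2.70. The median was 0.89 among 11 with no shared exon, where 4 were higher and 1 lower, and it ran from -0.20 with no filter to 1.11 with a mean FPKM of at least 5. Of 20 interferon-stimulated genes 4 were higher and 4 lower with a median of -0.01. Among 14 with no shared exon 3 were higher and 3 lower. These counts lay near the shares over all tested genes.

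Genes of the endoplasmic reticulum gave a median under the 2-fold size. Of 22 genes of the unfolded protein response 5 were at least 2-fold higher and none lower, with a median of 0.67, beside 17.6% higher among all tested genes. Among 11 with no shared exon 4 were higher with a median of 0.58, and with no filter the list median was 0.13. SDF2L1 read 19.98, 8.76, 103 and 83.2 FPKM, a difference of 4.14, PDIA4 differed by 2.28 and HSPA5, the main chaperone there, by 1.87. HSPA5 read 224, 319, 709 and 1037 FPKM, so it was highest in shALKBH5 hypoxia. CRYAB, a small heat shock protein, read 1.89, 4.79, 43.5 and 4.20 FPKM, a difference of 3.67, and was high in shScr hypoxia alone.

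ALKBH5 was higher in shScr hypoxia, while the median m6A gene lay below 0. ALKBH5 (ENSG00000091542, GRCh38 chromosome 17, 18183078 to 18209954, plus strand), the target of the other hairpin, read 39.6, 83.5, 186 and 113 FPKM, and shScr hypoxia stood 1.87 above WT hypoxia after centring. By rank it lay at 91.1 in WT hypoxia and 97.4 in shScr hypoxia, and shALKBH5 hypoxia was above both WT libraries in FPKM. It shares 11.2% of its exon bases with a gene on the opposite strand. Of 17 tested m6A writers, erasers and readers 3 were higher and 5 lower, with a median of -0.66, beside 17.6% higher and 15.8% lower among all tested genes. Among 9 with no shared exon none were higher and 3 lower, with a median of -0.84. The demethylase FTO differed by -1.02 and the methyltransferase subunits METTL3 and METTL14 by -1.003 and -0.98, all at the edge of the 2-fold size. IGF2BP3, a reader, read 21.4, 26.0, 2.91 and 6.27 FPKM, a difference of -2.06.

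HIF subunits and common reference genes gave further marks of scale. HIF1A read 130, 121, 120 and 50.6 FPKM, a difference of 0.71, EPAS1, which encodes HIF-2 alpha, differed by 1.60, and ARNT by -0.66. ACTB, the cytoskeletal actin, read 2484, 2205, 949 and 1027 FPKM, a difference of -0.49. GAPDH, TUBB and B2M differed by -0.95, -0.93 and -0.92, and VIM, the intermediate filament of these cells, by -2.30. All 5 of these abundant genes were above the median gene in each library and below 0 in the centred difference. EGFR differed by 0.64 and MYC by -1.57.

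The difference recurred in the libraries not used for it. The centred difference of shALKBH5 hypoxia minus WT normoxia shares no library with that of shScr hypoxia minus WT hypoxia, but it shares both tables and sets hypoxia against normoxia. Across the 10495 genes Pearson's r between these was 0.751 and Spearman's rho 0.723, and among genes with no shared exon they were 0.690 and 0.685. For HIF-responsive genes the median was 0.53 in the controls and 4.52 in the other pair, where the oxygen condition differs. For BMP and SMAD targets the medians were 2.15 and 1.84, for G2/M genes -1.07 and -1.72, and for SR proteins and hnRNPs -1.17 and -1.43. The replication-dependent histones, at 1.65 and 0.54, and the metallothioneins, at -1.83 and -0.23, were closer to 0 in the other pair.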

How the data were processed

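RNA-seq covered 4 U87 libraries, 1 a group. The authors deposited FPKM values in a WT table and an shRNA table, per the file headers. The submitters' processing notes name hg19, but gene starts and ends in the shRNA table equalled GENCODE release 29, a GRCh38 annotation, for 100% of the 18105 genes. Aligner, counter and strand setting are likewise not stated in the sources used here.

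Symbols were matched as spelled, and 747 rows of the WT table matched no row of the shRNA table, 53 bare numbers and 12 dates among them. For 15 repeated symbols the most abundant row was used. In both shRNA libraries the deposited FPKM multiplied by gene length came out as whole reads (tolerance 0.01 read) for 100% of values, which gave their reads. WT values are rounded and lack lengths. Exon sharing, union lengths and named pseudogenes were computed from GENCODE 29, and promoter windows come from RefSeq on GRCh38.p14.

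The named genes were the 12 highest and 12 lowest differences and the 6 largest rank shifts each way among genes averaging 5 FPKM or more, the largest differences of each of 39 lists (4 members at most), and 26 genes by name, some of which are not reported here. Other genes named from the lists, and those said to be picked, were chosen after their values were seen. The members and the lists were chosen with earlier results of these data known. Nothing marks the libraries as separate cultures, and no p-value was computed. The alternatives changed the pseudocount, filter, centring, repeated symbols and thresholds, and 4 on gene structure and 0 reads were added after seeing the data. The tools were numpy 2.4.6, pandas 2.3.3, matplotlib 3.10.9 and scipy 1.17.1 under Python 3.11.15.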

Additional observations from a re-analysis of the deposited data

How the results depend on the processing

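No paired analysis was possible because each group has 1 library. With no filter, where genes at 0 enter the centre, 908 genes were higher and 3411 lower (21.02% higher of those counted, against 52.7%), rho was 0.909, 1648 genes moved 20 points, and the myeloid marker median turned from -2.15 to 0.15. At 1.5-fold 3013 were higher and 2884 lower, and at 3-fold 804 and 753. At 10 points 5433 genes moved and at 30 points 1222. With a mean FPKM of at least 5, rho was 0.622. Among genes with no shared exon, 883 were higher, 731 lower and 1205 moved 20 points, 84 of the named genes were past 2-fold, and 15 HIF-responsive and 5 glycolysis genes ranked nearer to WT hypoxia. Among genes that also have 1 main length and few pseudogenes, 365 were higher, 267 lower and 538 moved 20 points, with 7 lists and 30 named genes past 2-fold. These 2 sets hold fewer genes, and otherwise the cause was not tested.

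Of 496 list medians recomputed, 469 stayed on the same side of the 2-fold size, 26 crossed it and 1 reversed. Over 14 settings, leaving out the set with 1 main length, the medians of BMP and SMAD targets, G2/M genes, SR proteins and hnRNPs, and metallothioneins stayed past 2-fold, histones did so in 13, integrins and cytosolic ribosomal proteins in 12, and collagens in 11. In the set left out the median of SR proteins and hnRNPs was -0.66. Of 2385 values of named genes 84 crossed the 2-fold size and none past it changed sign. Setting genes with 0 reads to 3 reads left 1842 genes higher and 1653 lower. Rescaling to equal sums gave 1596 higher and 2082 lower. The WT values carry no depth, and 1 library a group limits every value.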
